A study of Mus musculus with 20 samples.

Results

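Protocadherins are cell surface adhesion proteins of the cadherin superfamily, and every gene whose symbol begins with Pcdh is described here. The rule found 72 features among the 37557 that all tables share. Of these, 58 belong to the alpha, beta and gamma clusters (14, 22 and 22 genes), 12 are non-clustered genes and 2, Pcdha@ and Pcdhg@, are entries for a whole locus that were listed at 0 in every table. Of the 72, 65 were tested, having a typical level of 4 or more in log2 normalized counts: 11 alpha, 21 beta, 22 gamma and 11 non-clustered genes.

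The cells were mouse ESD3 (D3) embryonic stem cells of strain 129s2/SvPas grown on embryo fibroblast feeders. Spherical neural masses (SNMs) made from them were differentiated toward dopaminergic neurons. Both lines carried an shRNA, from a retrovirus by the labels and from lentiviral vectors with puromycin selection by the study's methods: the control line one against luciferase, and the HPRT knockdown line one against HPRT, the purine salvage enzyme hypoxanthine guanine phosphoribosyltransferase. Libraries came from each day between 0 and 4 and from even days between 6 and 14, with 1 library of pooled RNA per line and day, 20 libraries in all. There was 1 infected line on each side, so the knockdown and any other difference between these lines cannot be told apart. The days stood in for replicates, and p-values measure the spread over 9 days. Day 6, which the study omitted from its pathway work, was kept out of the tests and is given separately.

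Each table holds 2 libraries, as log2 normalized counts minus their mean, so it gives a log2 ratio and no level. Ratios below are HPRT knockdown minus control, and a ratio of 1 is a 2-fold higher level in the knockdown line. In bulk RNA, fewer cells of a type and less RNA per cell cannot be told apart. Hprt itself was at 3.12% to 17.4% of the control level over the 10 days (mean log2 ratio -4.0 ± 0.89, SD over 9 days). Size factors of the libraries, relative to their median, ran from 0.823 to 1.60.

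The clustered genes lie in tandem on chromosome 18. Each alpha or gamma variable exon has its own promoter and is spliced to constant exons shared by its cluster, whereas beta genes are mostly single exons without a constant part. Neurons express combinations of the clustered proteins, whose homophilic binding lets a neuron tell its own branches from those of other cells, and the choice of promoter depends on CTCF, cohesin and DNA methylation. Many non-clustered members are delta protocadherins, which act in cell sorting, migration and synapse formation. In the annotation of the files' build (NCBI37/mm9, GENCODE vM1) the 22 beta genes had models of their own between 37424652 and 37681073 on the plus strand of chromosome 18. Of the alpha and gamma members, Pcdha3, Pcdha11 and Pcdhgc5 alone had an entry under their names there. The Pcdha11 entry ran from 37089939 to 37347311 in 13 exon blocks and took in the place of Pcdha3. The Pcdhgc5 entry held 11 exon blocks. The entries of Pcdha11 and Pcdhgc5 cannot be taken as models of that member alone. Reads in shared exons cannot be assigned to a member from these tables, so counts over alpha and gamma members are not counts of independent genes.

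More protocadherins were higher than lower in the HPRT knockdown line, and the groups differed in their counts. Of the 65 tested members, 26 rose and 7 fell (limma, Benjamini-Hochberg adjusted p under 0.05). Among all 13604 genes tested, 26.2% rose and 26.3% fell, 52.5% in either direction. In the gamma cluster 16 of 22 members rose and 0 fell, with 0 lower also at an unadjusted p under 0.05 in limma, in the exact sign-flip test and without the pairing by day. In the alpha cluster 4 of 11 rose and 0 fell, with 0 lower at an unadjusted p under 0.05 in the same 3 tests. Of 21 beta genes 1 rose and 5 fell, and of 11 non-clustered genes 5 rose and 2 fell.

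The median of the mean ratios was 0.81 in the gamma cluster, 0.41 in the alpha cluster, -0.00076 in the beta cluster and 0.67 among the non-clustered genes, against 0.0056 over all genes tested. The gamma median was above 0 on all 9 tested days, from 0.28 on day 12 to 1.33 on day 4, and on days 0, 1, 4 and 8 all 22 gamma members were above 0. Day 6 stood apart. On that day the medians were -0.024 in the gamma, -0.22 in the alpha and -0.57 in the beta cluster, and 10 of 22 gamma members were above 0.

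**Figure D1:**
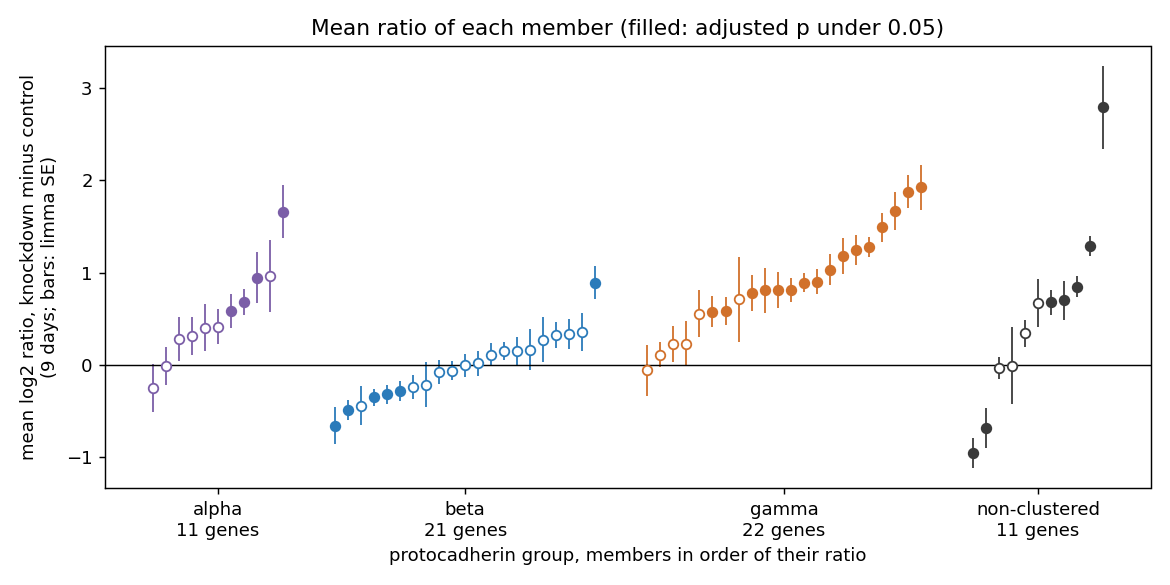
Mean log2 ratio (HPRT knockdown minus control) of each tested protocadherin over 9 days, by group; bars are the standard error from limma and filled points have an adjusted p under 0.05. Gamma members lie between -0.058 and 1.93, beta members between -0.66 and 0.89, and Pcdh15 stands highest at 2.79.

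Among the non-clustered genes Pcdh15 and Pcdh7 had the highest mean ratios and Pcdh8 and Pcdh18 the lowest. Their RefSeq promoter windows are printed, with 1 listed start kept per gene. The start kept for Pcdh15 may lie inside the gene, so its letters may not be those of the main promoter. Its window begins at 73821617, whereas the NCBI37 model of this plus-strand gene runs from 72562090 to 74112482. For Pcdh7, also on the plus strand, the window begins at 57717831 and the NCBI37 model at 58109260. Each window runs from 250 bases before to 50 bases after the start, 5′ to 3′ on the strand of the gene, in build GRCm38.p6, which is not the build of the files. Capitals mark the letters CGCT, the core of an element known from clustered protocadherin promoters, and CCCTC, part of a CTCF-type site. Both were searched on both strands, and matches of the 2 motifs can share a C. Matches of the same motif can also overlap: AGCGCT counts as 2 matches of CGCT, and in the GAGGG repeats of Pcdh7 neighbouring matches share a G. The counts are therefore not numbers of separate sites.
Pcdh15 (chr10:73821617-73821916, plus strand): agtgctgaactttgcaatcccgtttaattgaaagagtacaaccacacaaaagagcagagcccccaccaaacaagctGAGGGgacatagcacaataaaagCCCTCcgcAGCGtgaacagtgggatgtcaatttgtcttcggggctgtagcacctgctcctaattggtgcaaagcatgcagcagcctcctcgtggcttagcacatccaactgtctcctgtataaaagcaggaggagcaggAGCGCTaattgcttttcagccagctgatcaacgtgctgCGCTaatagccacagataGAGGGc
Pcdh7 (chr5:57717831-57718130, plus strand): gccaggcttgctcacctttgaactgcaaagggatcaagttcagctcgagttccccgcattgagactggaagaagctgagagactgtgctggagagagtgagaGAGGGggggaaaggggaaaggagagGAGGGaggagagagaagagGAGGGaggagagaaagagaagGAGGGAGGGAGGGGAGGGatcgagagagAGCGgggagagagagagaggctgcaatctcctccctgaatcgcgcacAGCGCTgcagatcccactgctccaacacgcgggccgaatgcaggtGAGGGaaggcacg
Pcdh8 (chr14:79771263-79771562, minus strand): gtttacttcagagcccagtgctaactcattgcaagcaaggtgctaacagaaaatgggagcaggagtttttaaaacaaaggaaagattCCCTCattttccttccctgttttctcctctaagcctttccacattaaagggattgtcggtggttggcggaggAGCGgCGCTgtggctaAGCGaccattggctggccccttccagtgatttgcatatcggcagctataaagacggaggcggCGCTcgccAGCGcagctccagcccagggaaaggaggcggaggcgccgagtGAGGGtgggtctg
Pcdh18 (chr3:49757267-49757566, minus strand): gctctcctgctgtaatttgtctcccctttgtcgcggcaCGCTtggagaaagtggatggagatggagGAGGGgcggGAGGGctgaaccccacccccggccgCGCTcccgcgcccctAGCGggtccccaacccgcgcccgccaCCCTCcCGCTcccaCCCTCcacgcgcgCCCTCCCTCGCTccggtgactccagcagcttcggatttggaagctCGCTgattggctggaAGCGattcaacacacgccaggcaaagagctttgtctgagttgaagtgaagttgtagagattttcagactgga
CGCT occurred 4 times in the Pcdh15 window, 3 times in that of Pcdh7, 5 times in that of Pcdh8 and 7 times in that of Pcdh18, and CCCTC occurred 3, 8, 2 and 6 times. Of 27025 mouse promoter windows of this length, 61.5% held CGCT and 65.0% held CCCTC, with a median of 1 match each. The windows held 8, 11, 14 and 23 CpG dinucleotides in the same order, against a median of 7 over all windows. These matches are a description of the letters.

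Pcdh15, on chromosome 10 (72562090 to 74112482, plus strand, NCBI37), encodes a cadherin of the tip links of inner ear hair cells. Its read numbers could be recovered from the tables. Numbers were searched in steps of 1 base in 49, so some below are fractions. In order of day, the control line had 76, 72, 32, 47, 10, 44, 39, 63, 92 and 58 reads. The knockdown line had 133, 131, 80, 356, 84, 455, 545, 929, 662 and 735 reads. The lines were closest on day 0 and farther apart from day 3 on, and no control library held more than 92 reads. Divided by the size factor and by kilobases of exon, the control level lay between 0.437 and 3.54 and the knockdown level between 4.17 and 43.5, so the lines did not overlap. The log2 ratio was 0.25, 1.00 and 1.32 on days 0, 1 and 2, and between 3.41 and 4.18 on every later day, day 6 included. Its mean was 2.79 ± 0.45 (SE; adjusted p = 0.00076, limma), a 6.92-fold difference, higher on 9 of 9 days.

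The values of 5 oligodendrocyte markers are given beside those of Pcdh15. Olig2, a transcription factor of these myelin-forming cells, was higher on 9 of 9 days (mean 3.02 ± 0.43, SE; adjusted p = 0.00043, limma), with ratios of 0.48, 1.97, 2.85, 3.06 and 1.81 on days 0 to 4, 0.96 on day 6 and 3.36, 5.05, 4.45 and 4.17 on days 8 to 14. The other 4, the myelin genes Mbp, Mag and Mog and the transcription factor gene Sox10, did not pass by mean ratio (2.19, 2.79, 0.41 and 1.86). All 4 were below 0 on days 0, 1, 2 and 4 and above 0 on day 3. The ratio of Mbp was 4.42 on day 3, -0.87 on day 4 and 6.35 on day 14. Within the knockdown line Mbp, Mag and Sox10 rose with day, by 0.44, 0.53 and 0.39 per day on the log2 scale (adjusted p = 0.026, 0.034 and 0.023, limma). Mog (0.25 per day) and Olig2 (0.064) did not pass for this trend. After division by the size factors, Pcdh15 went from 389 to 102 reads in the knockdown line between day 3 and day 4. In the control line it went from 29.3 to 9.58. S100b, from the list of astrocyte and radial glia markers, had ratios from -0.93 to 0.98 on days 0 to 2, 4.36 on day 3 and 3.75 on day 6. The other markers of that list were below 0 on day 6. The part of oligodendrocytes, astrocytes or other cells in the Pcdh15 values was not tested.

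Pcdh7, a delta protocadherin on chromosome 5 (58109260 to 58520590), had the smallest spread between days among the non-clustered genes that passed. Its ratio was 1.27, 0.96, 1.00, 1.34 and 1.61 on days 0 to 4 and 1.79, 1.65, 1.01 and 1.00 on days 8 to 14, with a mean of 1.29 ± 0.11 (SE; adjusted p = 3.5e-05, limma). It was near 1 or above on all 9 tested days. On day 6 the ratio was -0.63, and both lines took part in the change. From day 4 to day 6 the control level moved by 1.25 and the knockdown level by -0.93 on the log2 scale, and from day 6 to day 8 they moved by -1.43 and 0.89.

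Pcdh10, a delta protocadherin of forebrain circuits on chromosome 3 (45182320 to 45238488), was also higher on 9 of 9 days. In order of day the control line had 1128, 1112, 881, 1343, 754, 1003, 722, 1226, 1834 and 1589 reads. Reads in the knockdown line were 3297, 2327, 1546, 1899, 1081, 908, 1147, 2155, 1431 and 1756. The read numbers of the lines overlapped, and after division by the size factors the ratio ran from 0.35 on day 12 to 1.31 on day 3, with -0.076 on day 6. The mean ratio was 0.85 ± 0.11 (SE; adjusted p = 0.00027, limma).

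Pcdh9 and Pcdh1 rose less. Pcdh9, widely expressed in the developing brain, had ratios of 0.23, 0.63, 0.037, 1.18 and 0.23 on days 0 to 4, -0.23 on day 6 and 0.64, 1.00, 1.08 and 1.07 on days 8 to 14, all above 0 but day 6. Its mean was 0.68 ± 0.14 (SE; adjusted p = 0.0026, limma), and without the pairing by day the adjusted p was 0.11. Pcdh1, known from epithelia as well as brain, lies on chromosome 18 outside the clusters (38345569 to 38371707, minus strand). Its ratios were 0.98, -0.17, -0.055, 0.29 and -0.0017 on days 0 to 4, 0.99 on day 6 and 1.11, 1.51, 1.03 and 1.62 on days 8 to 14, so day 0 and days 8 to 14 were near 1 or above and days 1 to 4 were lower. The mean was 0.70 ± 0.21 (SE; adjusted p = 0.019, limma), and the adjusted p was 0.060 in the exact sign-flip permutation test.

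**Figure D2:**
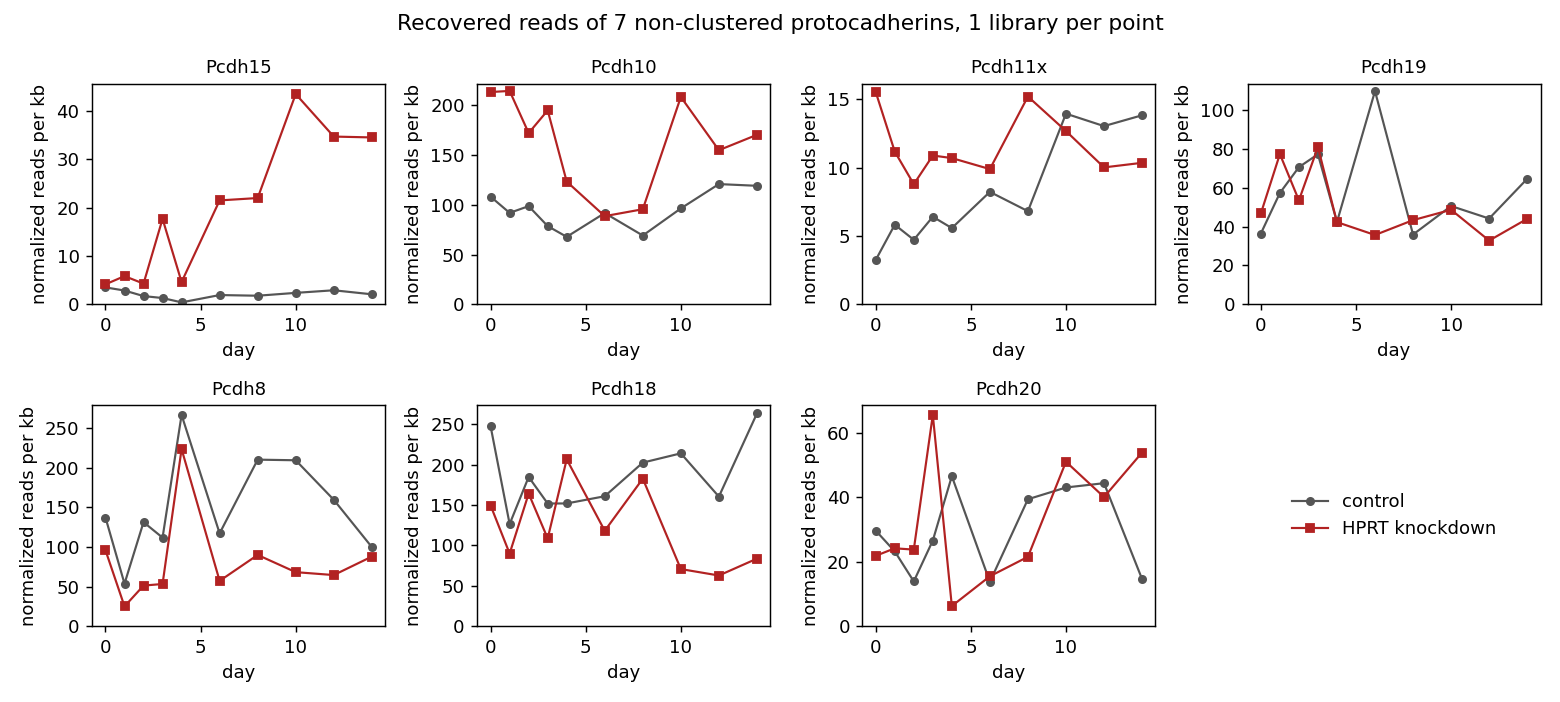
Recovered reads of 7 non-clustered protocadherins, divided by the size factor of the library and by kilobases of exon, against day; each point is 1 library. In the Pcdh15 panel the lines do not overlap (control up to 3.54, knockdown from 4.17), whereas the lines of Pcdh19 and Pcdh20 cross.

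Pcdh8 and Pcdh18 fell. Pcdh8, an activity-induced protocadherin (arcadlin) also known from paraxial mesoderm, lies on chromosome 14 (80166587 to 80171119, minus strand). The control line had 537, 244, 439.8, 716, 1111, 481, 823, 999, 909 and 500.4 reads in order of day. In the knockdown line there were 556, 102, 173, 195, 735, 220, 405, 265, 224 and 340 reads. Both lines were highest on day 4. The ratio was below 0 on 9 of 9 days, between -1.61 (day 10) and -0.18 (day 14), and -1.06 on day 6. Its mean was -0.96 ± 0.16 (SE; adjusted p = 0.00096, limma).

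Pcdh18, a delta protocadherin on chromosome 3 (49547218 to 49561238, minus strand), had 1253, 743, 801, 1259.8, 820.0, 854, 1027, 1322, 1183 and 1707 reads in the control line in order of day. Knockdown reads numbered 1122, 475, 717, 515, 879.7, 588, 1065, 356, 282 and 419. The lines parted late: the ratio was -1.59, -1.36 and -1.65 on days 10, 12 and 14, and between -0.71 and 0.44 on the earlier tested days. The mean was -0.68 ± 0.22 (SE; adjusted p = 0.025, limma). Leaving out day 10, day 12 or day 14 gave adjusted p-values of 0.055, 0.057 and 0.053 (limma), so the call needed all 3 days.

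The other 4 tested non-clustered genes did not pass between the lines. Pcdh11x, a delta protocadherin on the X chromosome, had 29, 60.2, 36, 93.4, 52.9, 76.7, 60.7, 151, 169 and 157 reads in the control line in order of day. In the knockdown line the numbers were 205, 104, 67.4, 90.5, 80, 86.4, 156, 112, 79 and 91.1. Its ratio went from 2.27 (day 0) to -0.41 (day 14), its mean was 0.67 ± 0.26 (SE; adjusted p = 0.053, limma), and the adjusted p was 0.041 without the pairing. Pcdh17, of cortico-striatal circuits, had ratios from -0.56 on day 4 to 0.89 on day 10 and a mean of 0.34 ± 0.15 (SE; adjusted p = 0.074, limma), and without day 4 the adjusted p was 0.013.

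Pcdh19, a gene of X-linked epilepsy, had 367, 669, 608, 1272, 454, 1157, 362, 621, 647 and 832 reads in the control line in order of day. The knockdown line had 698, 810, 464, 761, 358, 353, 502, 486, 293 and 438 reads. Its tested ratios lay between -0.55 and 0.41, with -1.64 on day 6 and a mean of -0.031 ± 0.12 (SE; adjusted p = 0.84, limma). Day 6 was the day on which the lines were farthest apart. Pcdh20 varied most between days among these 4. It had 254 control and 27 knockdown reads on day 4 (ratio -2.89) but 96 control and 273 knockdown reads on day 14 (ratio 1.89), and its mean was -0.0074 ± 0.41 (SE; adjusted p = 0.99, limma).

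The 7 non-clustered genes with recovered reads differed widely in level. Their control medians over 10 days, in normalized reads per kilobase of exon, were 2.03 for Pcdh15, 6.62 for Pcdh11x, 28.1 for Pcdh20, 53.8 for Pcdh19, 94.2 for Pcdh10, 134 for Pcdh8 and 173 for Pcdh18. The control range of each gene overlapped that of the next in this order. In the knockdown line Pcdh10 was highest (171) and Pcdh11x lowest (10.8), with Pcdh15 at 19.6. The control range of Pcdh8 (53.7 to 267) overlapped those of its neighbours Pcdh10 (67.9 to 121) and Pcdh18 (127 to 263), from which it did not differ beyond the spread over days, whereas Pcdh10 and Pcdh18 did not overlap. The counting error of a ratio, at the median day, was 0.0516 to 0.218 on the log2 scale, below the SD between days for all 7. Pcdh12, known from endothelium and placenta, did not reach the level minimum and had ratios from -1.38 to 2.15.

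Gamma genes that rose were found among the A, B and C types, the C types being those whose promoters are not chosen at random. Pcdhgc3, Pcdhga7, Pcdhgb6 and Pcdhga3 were the gamma genes at a typical log2 count of at least 8. No reads were recovered for gamma genes, so their order within that class is not known. Pcdhga3, an A-type gene, had a mean of 1.27 ± 0.11 (SE; adjusted p = 3.9e-05, limma), higher on 9 of 9 days. Pcdhgc3, a C-type gene that is broadly expressed, had ratios of 0.80, 0.95, 1.07, 1.35 and 1.43 on days 0 to 4, 0.053 on day 6 and 1.89, 2.31, 1.86 and 1.76 on days 8 to 14. Its mean was 1.49 ± 0.16 (SE; adjusted p = 9.9e-05, limma), higher on 9 of 9 days. Pcdhga7, an A-type gene, had ratios of 1.01, 0.76, 1.15, 1.32 and 0.91 on days 0 to 4, 0.15 on day 6 and 0.71, 1.27, -0.046 and 1.06 on days 8 to 14, with a mean of 0.90 ± 0.13 (SE; adjusted p = 0.00047, limma). Both were above 0 on all tested days but day 12 for Pcdhga7.

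Pcdhgb6 crossed 0. Its ratio was 0.85, 0.46, 0.82, 0.53 and 0.55 on days 0 to 4, -1.06 on day 6, and 0.027, -1.12, -1.29 and -1.34 on days 8 to 14, and the mean was -0.058 ± 0.28 (SE; adjusted p = 0.87, limma). Pcdhgc4, a C-type gene required for the survival of interneurons, had ratios of 2.67, 1.06, 1.60, 1.22 and 1.81 on days 0 to 4, 0.12 on day 6 and 1.48, -0.049, -1.86 and -1.51 on days 8 to 14 (mean 0.71 ± 0.46, SE; adjusted p = 0.22, limma). In both genes the early days were above 0 and days 10 to 14 below it. Members of the cluster did not share 1 ratio, although they share exons: the SD over the 22 gamma ratios was 0.46 on day 4 and 1.16 on day 14.

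The largest mean gamma ratios were those of Pcdhgb8 (1.93 ± 0.24, SE), Pcdhgb2 (1.88 ± 0.18), Pcdhgc5 (1.67 ± 0.20) and Pcdhgc3, each higher on 9 of 9 days. The 6 members that did not pass were Pcdhga9, Pcdhga10, Pcdhgb1, Pcdhgb6, Pcdhgb7 and Pcdhgc4, with means from -0.058 to 0.71.

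**Figure D3:**
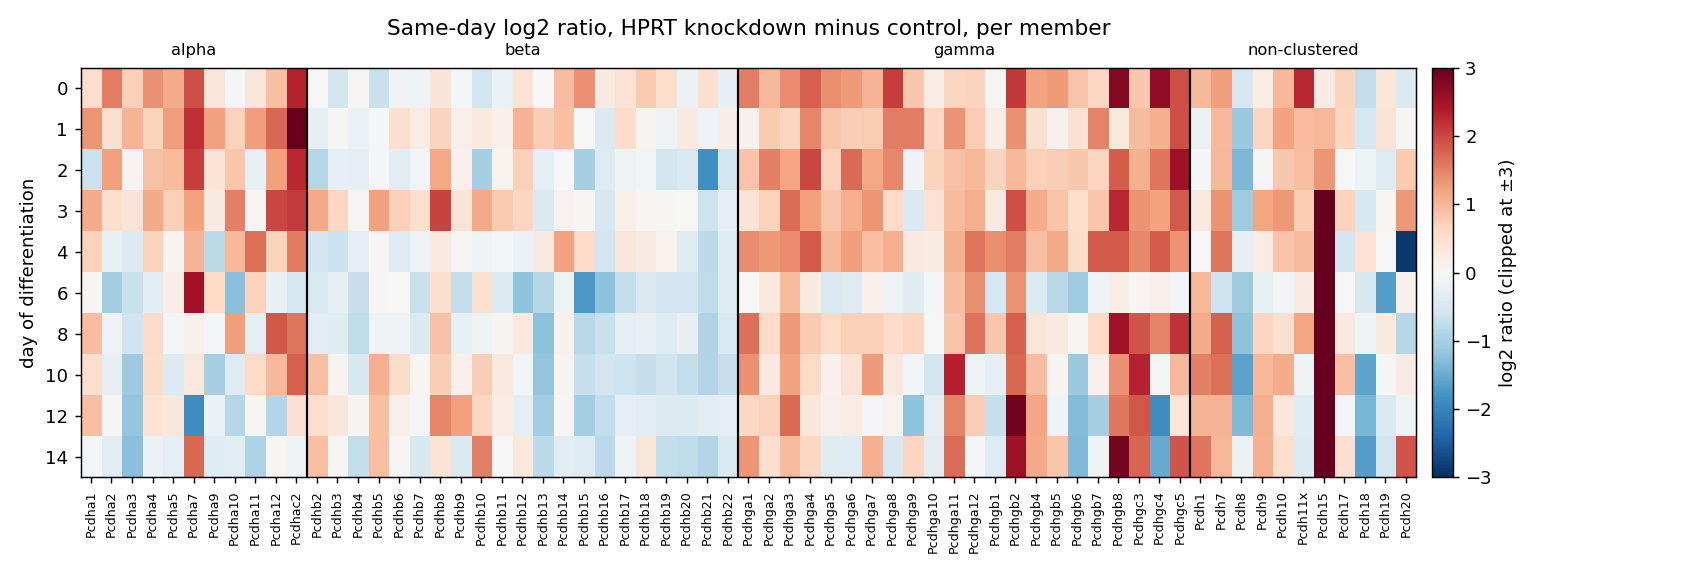
Log2 ratio, HPRT knockdown minus control, of the 65 tested protocadherins on each of 10 days, by group; red is higher in the knockdown line and colours are clipped at ±3. The gamma genes are mostly red on the tested days (median 1.33 on day 4) but not on day 6 (median -0.024), and Pcdh15 is strongly red from day 3 on.

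In the alpha cluster the ratios were higher early than late. The cluster median was 0.91, 1.25, 0.89, 1.11 and 0.68 on days 0 to 4 and 0.12, 0.31, 0.028 and -0.26 on days 8 to 14. Pcdhac2, a C-type gene of serotonergic neurons, had the largest mean, 1.66 ± 0.29 (SE; adjusted p = 0.0012, limma), from 2.99 on day 1 to -0.12 on day 14. Pcdha4, Pcdha12 and Pcdha1 also rose, with means of 0.68, 0.95 and 0.58.

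Pcdha1, Pcdha10 and Pcdha3 were picked from the alpha members by the rounding of their values. All tested alpha members lay below a typical log2 count of 8 and no reads were recovered for them, so this is not a rank of measured levels. Pcdha1 had ratios of 0.53, 1.34, -0.64, 1.11 and 0.68 on days 0 to 4, 0.045 on day 6 and 0.92, 0.47, 0.91 and -0.060 on days 8 to 14 (mean 0.58 ± 0.19, SE; adjusted p = 0.025, limma). Its call was lost without day 1, 3, 8 or 12, in the exact sign-flip permutation test and without the pairing, at adjusted p-values of 0.055 to 0.28. Pcdha10 had ratios of -0.048, 0.70, 0.84, 1.52 and 0.96 on days 0 to 4, -1.25 on day 6 and 1.24, -0.38, -0.86 and -0.34 on days 8 to 14 (mean 0.41 ± 0.25, SE; adjusted p = 0.20, limma). Pcdha3 had ratios of 0.72, 1.02, 0.085, 0.40 and -0.41 on days 0 to 4, -0.68 on day 6 and -0.59, -1.09, -1.16 and -1.25 on days 8 to 14 (mean -0.25 ± 0.26, SE; adjusted p = 0.43, limma), so its first 4 and last 5 tested days lay on opposite sides of 0. The 3 alpha genes below the level minimum, Pcdha6, Pcdha8 and Pcdhac1, had ratios from -3.62 to 3.80, and Pcdha6 was above 0 on 9 of 9 days.

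Of the beta genes, which have no shared constant exons, 10 of 21 had a mean ratio above 0 and 11 below, although 5 of the 6 that passed fell. Between 87.6% and 100% of the 49-base windows of a beta gene model occurred once in the genome, so some reads could have come from a paralog. Pcdhb8 was the 1 member that rose. Its ratio was 0.38, 0.66, 1.16, 2.04 and 0.29 on days 0 to 4, 0.50 on day 6 and 0.89, 0.73, 1.48 and 0.42 on days 8 to 14, with a mean of 0.89 ± 0.18 (SE; adjusted p = 0.0024, limma), and it was above 0 on all 10 days.

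The 5 beta members that fell were Pcdhb21, Pcdhb16, Pcdhb22, Pcdhb20 and Pcdhb4. Pcdhb21 had ratios of 0.47, -0.15, -1.84, -0.62 and -0.78 on days 0 to 4, -0.75 on day 6 and -0.91, -0.89, -0.31 and -0.87 on days 8 to 14 (mean -0.66 ± 0.20, SE; adjusted p = 0.018, limma), below 0 on every day but day 0. Pcdhb16 had 140, 172, 117, 234, 175, 227, 283, 427, 381 and 392 reads in the control line in order of day. Reads in the knockdown line were 246, 117, 90.1, 95, 94.3, 92, 202, 232, 139 and 173. It too was lower on every day but day 0, with a mean of -0.49 ± 0.10 (SE; adjusted p = 0.0035, limma), and without the pairing the adjusted p was 0.084. Pcdhb22, the last gene of the cluster and its 1 member at a typical log2 count of at least 8, was lower on every day but day 1, with ratios from -0.70 to 0.20 (mean -0.35 ± 0.090, SE; adjusted p = 0.0087, limma).

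Pcdhb20, a pseudogene in GENCODE vM1, had 166, 123, 93, 199, 118, 141, 169, 304, 273 and 257 reads in the control line in order of day. Knockdown reads numbered 212, 135, 68, 113, 72, 90, 163, 151, 126 and 117. Its ratio was above 0 on day 1 alone, with a mean of -0.32 ± 0.11 (SE; adjusted p = 0.030, limma). The call was lost when day 2, 4, 10, 12 or 14 was left out (adjusted p up to 0.067), in the exact sign-flip permutation test (0.054) and without the pairing (0.19). Pcdhb4 had a mean of -0.28 ± 0.11 (SE; adjusted p = 0.049, limma) and was lower on 6 of 9 days. This call was lost in 11 of the other settings, at adjusted p-values up to 0.27 (without the pairing), among them the exact sign-flip permutation test (0.060).

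Pcdhb13 had the third lowest mean of the cluster and did not pass (mean -0.44 ± 0.21, SE; adjusted p = 0.10, limma). Its control reads were 29, 13, 16, 33, 22, 17, 33.3, 72, 77 and 84.7 in order of day. Its knockdown reads were 42, 19.8, 13, 14, 21, 9, 16, 25.5, 22.9 and 38. The ratio lay between -0.43 and 0.74 up to day 4, on both sides of 0, and between -1.24 and -0.78 from day 8 on. Without day 1 the adjusted p was 0.026 (limma).

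After Pcdhb8, the 4 beta genes with the highest mean ratios did not pass. Pcdhb5 had ratios of -0.68, -0.057, -0.066, 1.24 and 0.035 on days 0 to 4, 0.025 on day 6 and -0.14, 1.07, 0.89 and 0.89 on days 8 to 14 (mean 0.35 ± 0.21, SE; adjusted p = 0.17, limma). Pcdhb10 had 97, 55, 54, 64, 48, 52, 94, 160.1, 163 and 104 reads in the control line in order of day. The knockdown line had 95, 61.7, 27, 80, 35, 68, 98, 216, 155 and 228 reads, and the mean ratio was 0.28 ± 0.25 (SE; adjusted p = 0.37, limma). Both genes were higher in the knockdown line on days 3, 10, 12 and 14. Pcdhb14 and Pcdhb12 had means of 0.34 and 0.32, with ratios from -0.33 to 1.21 and from -0.29 to 1.05.

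A set of 5 beta genes, Pcdhb2, Pcdhb3, Pcdhb5, Pcdhb6 and Pcdhb10, chosen after their values were seen, shared the sign of their ratios on several days. All 5 were above 0 on day 3 (0.61 to 1.24), day 10 (0.073 to 1.07), day 12 (0.15 to 0.89) and day 14 (0.025 to 1.51), and all 5 were below 0 on day 2 (-1.0 to -0.066) and day 8 (-0.36 to -0.10). Of all 21 beta genes 16 were above 0 on day 3 and 4 on each of days 2 and 8, so on those days the 5 had the sign of most of the cluster. Above 0 were 10 of the 21 on day 10, 10 on day 12 and 8 on day 14.

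Read in order along the chromosome, beta ratios were lower at the far end. This division was made after the values were seen and was not tested. The 11 tested genes from Pcdhb2 to Pcdhb12 had a median mean ratio of 0.15, with 3 below 0. The 10 genes from Pcdhb13 to Pcdhb22 had a median of -0.28, with 8 below 0, and held 4 of the 5 genes that fell. The far genes had the lower median on 7 of 9 days, by -0.98 (far minus near) on day 10 and -0.63 on day 14, but the higher one on day 0 (0.55) and day 4 (0.32). Pcdhb1, the first gene, did not reach the level minimum, with ratios from -2.40 to 2.07.

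**Figure D4:**
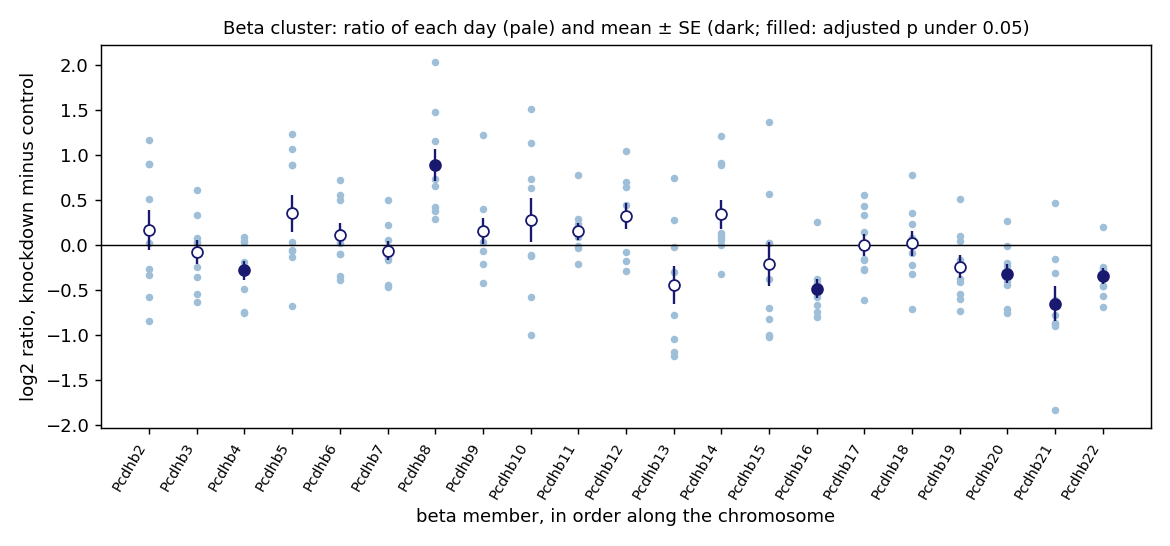
Log2 ratio, HPRT knockdown minus control, of 21 beta protocadherins in their order along chromosome 18; pale points are the 9 tested days, dark points the mean with the limma standard error, filled where the adjusted p is under 0.05. Pcdhb8 stands above its neighbours at 0.89, and from Pcdhb13 on 8 of 10 means are below 0.

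Over the 11 beta genes with recovered reads, the median level over 10 days ran from 6.86 normalized reads per kilobase for Pcdhb13 to 66 for Pcdhb11 in the control line. In the knockdown line the same genes were lowest and highest (6.08 and 69.6). A library held between 9 and 464 reads of such a gene. The counting error of a ratio at the median day was 0.12 to 0.44, below the SD between days for all 11, though for Pcdhb4 the values were close (0.31 and 0.32).

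Trends over time were tested as the slope of the log2 value on day within each line. In the control line 15 of 21 beta genes rose and 0 fell, with 0 falling at an unadjusted p under 0.05 (limma), and all 21 slopes were above 0 with a median of 0.082 per day. Of all genes tested, 19.7% rose and 23.9% fell. The beta median stood at -0.38 relative to day 0 on day 3 and at 0.71 on day 14. The steepest slopes were those of Pcdhb13 (0.15 per day), Pcdhb14 (0.14) and Pcdhb12 (0.14). These slopes use the deposited control step from day 3 to day 4, which does not close with the other steps. That step was 0.75 for Pcdhb12 and -0.38 for Pcdhb14. Their normalized control reads went from 20.9 to 26.8 and from 46.6 to 26.8, a smaller rise and a larger fall. The high rank of Pcdhb12 and Pcdhb14 may therefore rest on that step. In the whole family 30 of 65 members rose and 0 fell in the control line (limma; 1 fell at an unadjusted p under 0.05).

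Outside the beta cluster 6 of 11 alpha, 6 of 22 gamma and 3 of 11 non-clustered genes rose in the control line, against 19.7% of all genes. The gamma and non-clustered counts were near that share. The 3 non-clustered genes that rose were Pcdh11x (0.13 per day, adjusted p = 0.0012, limma), Pcdh9 (0.091) and Pcdh17 (0.034). Markers of neurons rose in the same libraries, 6 of 10 with 0 falling by limma (median slope 0.089 per day), as did 4 of 7 fibroblast markers (0.17). The share over all genes was the same 19.7%. The part of these markers in the protocadherin trends was not tested.

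In the HPRT knockdown line 10 members rose and 9 fell, against 7.56% and 5.49% of all genes. Pcdhb2, Pcdhb3, Pcdhb5, Pcdhb9 and Pcdhb10 rose and 0 beta genes fell, also at an unadjusted p under 0.05 (limma). Of these Pcdhb10 was steepest, at 0.17 per day (adjusted p = 0.024). Pcdh15 rose by 0.24 per day (adjusted p = 0.017) and Pcdh9 by 0.13 (adjusted p = 0.037). In the gamma cluster 7 genes fell and in the alpha cluster 2, Pcdhgc4 most steeply (-0.15 per day).

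These knockdown calls depended on single days. The number of members passing was 3 without day 12, 3 without day 14, 7 without day 2 and 9 without day 10. With the slope taken on log2(day + 1) it was 0 by limma, with 14 rising and 13 falling at an unadjusted p under 0.05.

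The difference in trend was tested as the slope of the ratio on day. It is not exactly the difference of the slopes above, since the control slopes also use a table of days 3 and 4 that does not close with the others. The ratio fell with time for 12 members and rose for 2, against 6.62% and 7.43% of all genes. It fell for Pcdha3, Pcdha4, Pcdha5 and Pcdhac2 in the alpha cluster, where all 11 slopes were below 0, for Pcdhga4, Pcdhga5, Pcdhga6, Pcdhga8, Pcdhga10, Pcdhgb6 and Pcdhgc4 in the gamma cluster, and for Pcdh11x. The steepest falls were those of Pcdhgc4 (-0.26 per day; adjusted p = 0.013, limma) and Pcdhgb6 (-0.17; adjusted p = 0.0036). The call of Pcdhgc4 was lost without day 14 (adjusted p = 0.053), and that of Pcdh11x without day 10, 12 or 14 (up to 0.074). In the beta cluster 0 genes passed by limma, with 2 rising and 6 falling at an unadjusted p under 0.05.

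The ratio of Pcdh15 rose by 0.23 per day (adjusted p = 0.041, limma), but this call was lost in 8 of the other settings, at adjusted p-values up to 0.10. That of Pcdhgc3 rose by 0.083 (adjusted p = 0.026), a call lost with day 6 kept and without day 0, 1 or 12 (up to 0.17). Pcdh1 had the second steepest rise, 0.10 per day, and did not pass (adjusted p = 0.054). Without day 12, and likewise without day 14, the 14 members became 7.

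**Figure D5:**
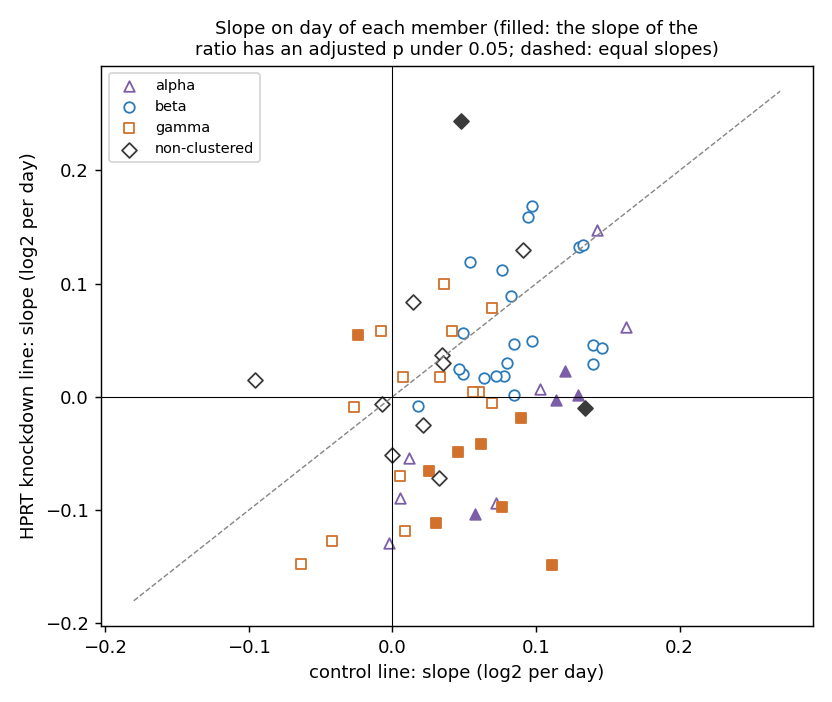
Slope of the log2 value on day in the control line (x axis) and in the HPRT knockdown line (y axis) for 65 protocadherins, in log2 units per day; filled symbols are the 14 members whose ratio changed with day (adjusted p under 0.05), and the dashed line marks equal slopes. All 21 beta genes lie right of 0 on the x axis, most filled alpha and gamma genes lie below the dashed line, and Pcdh15 lies above it.

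Steps between consecutive days have 1 library on each side and no test. Of 585 steps of members in the control line, 4.96% were up by 2-fold or more and 3.25% down, against 3.56% and 2.69% over all genes. In the knockdown line the shares were 5.98% and 6.67%, against 4.88% and 5.13%. Steps in which over 10% of the members moved were looked at singly. The step with the most members was that from day 3 to day 4 in the knockdown line, where 13 of 65 fell by 2-fold or more, 20.0% against 4.72% of all genes. They were Pcdhb2, Pcdhb3, Pcdhb5, Pcdhb6, Pcdhb8 and Pcdhb10, Pcdha5, Pcdha9, Pcdhgb8, Pcdhgc5, Pcdh9, Pcdh15 and Pcdh20.

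From day 4 to day 6 the gamma median fell by 0.72 in the knockdown line, where 6 gamma genes fell by 2-fold or more, and rose by 0.63 in the control line, where 4 others rose by 2-fold or more. Of the 22 gamma genes 14 were up in the control line and down in the knockdown line over this step, 6 were down in both and 2 were up in both. Over that step 10 of 65 members fell in the knockdown line (15.4%, against 5.23% of all genes) and 10 rose in the control line (15.4%, against 9.73%). From day 8 to day 10 the beta genes Pcdhb2, Pcdhb3, Pcdhb5, Pcdhb6 and Pcdhb10 were among 8 members that rose in the knockdown line (12.3%, against 4.6% of all genes). From day 10 to day 12 in that line 5 alpha genes were among 7 members that fell (10.8%, against 3.45%).

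Genes for factors that act on the clustered promoters were mostly lower in the knockdown line. Of 18 such genes (CTCF, cohesin, DNA methylation and repressors), 13 fell and 0 rose by limma, with a median ratio of -0.37, where 26.3% of all genes fell. The largest differences were in Dnmt3b, a de novo DNA methyltransferase (-1.81 ± 0.57, SE; lower on 7 of 9 days), Rest, a repressor of neuronal genes (-0.61 ± 0.15), the cohesin regulator Pds5a (-0.61 ± 0.10) and Dnmt1, the maintenance methyltransferase (-0.58 ± 0.093). On day 6 the median of the list was 0.23, and on the other days it was below 0.

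Of 21 cytoplasmic partners and processing enzymes of protocadherins, 8 rose and 4 fell (median 0.26), where 26.2% of all genes rose and 26.3% fell. The kinases Prkca (1.18 ± 0.13, SE), Fyn (1.11 ± 0.24) and Ptk2b, which is inhibited by alpha and gamma protocadherins (0.88 ± 0.12), rose, and Set, a phosphatase inhibitor and histone chaperone, fell (-0.85 ± 0.098). Of 31 other cadherins tested, 9 rose and 6 fell (median 0.086), against the same 26.2% and 26.3% of all genes, so as a list they did not stand out. Cdh12 (-2.13 ± 0.41), Cdh7 (-2.08 ± 0.39) and Cdh1, E-cadherin (-1.53 ± 0.45), fell, and the desmosomal Dsc2 rose (1.48 ± 0.28).

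Some marker lists of cell types differed between the lines. The lists stand beside the counts above, and their part in them was not tested. All 6 pluripotency markers fell (median ratio -2.81), each lower on 9 of 9 tested days, with a list median of -7.76 on day 1 but 0.26 on day 6. Of 10 neuronal markers 6 fell and 0 rose by limma (median -1.55), whereas of 6 astrocyte and radial glia markers 5 rose and 0 fell (median 1.27). The astrocyte and radial glia median was above 0 on all 9 tested days and -0.60 on day 6. Of 7 fibroblast markers 2 fell, of 4 endothelial markers 1 fell, and of 2 endoderm markers 1 rose and 1 fell. Among all genes tested 26.2% rose and 26.3% fell, so the fibroblast and endothelial counts were near the share of all genes.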

How the data were processed

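Total RNA of SNMs was made into TruSeq libraries and sequenced on an Illumina HiSeq, 5 libraries to a lane; the lane of each library is not given in the sources used here. Per the labels and the study's methods, the authors aligned reads to mm9 with CASAVA 1.8.2 and normalized counts by DESeq in Avadis NGS. The deposited values are log2 normalized counts minus the mean of the 2 libraries of a table, with 1 normalized count or fewer entered as 0 on the log2 scale. There are 28 tables, of the same day or of consecutive days in a line. Totals cannot be read from them, so depth is known only as size factors and recovered reads.

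Per-day ratios, steps and slopes were computed from these values. With limma 3.58.1 (R 4.3.3), means and slopes were fitted over 13604 genes with a typical level of 4 or more in log2 normalized counts, read from the rounding of the values, and a Benjamini-Hochberg adjusted p under 0.05 was called. Levels within a line were carried from day to day starting at day 0, and the days of 1 line are not independent replicates. In the control line a misfit in the step from day 3 to day 4 carries into every later day. The fits were tested on simulated data. For 18 members, reads were recovered as the numbers, in steps of 1 base in 49, that give the ratios of all tables used at once. The step was a setting and the search favoured whole reads. The 169 of 360 values that were whole reads are therefore no check on the recovery. Solutions with fewer than 2 whole values, or whose level differed from the rounding (2 genes), were set aside. Counting errors cover reads only. Loops of 4 tables closed for 90.4% to 92.1% of genes, except for days 3 and 4 (0.0294%, median residual 0.0413 on the log2 scale). The control table of days 3 and 4 was therefore left out of the recovery, but it was used as deposited in the control trend.

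Members, gene lists and comparisons were chosen with earlier results of these data known. Given day by day or by range were all tested non-clustered genes and the 5 highest and 5 lowest beta genes by mean ratio. So were 3 alpha and 3 gamma genes ranked by the rounding of their values, which is not a measured level, and the 2 steepest rises and falls of the ratio. Of each gene list, the 4 largest called differences were named. Other genes were named after their values were seen. For 1 marker list a member, and the values over the whole list, are not reported here. Alternatives were another level minimum, no minimum, day 6 kept, each day left out, an exact sign-flip permutation test, an unpaired fit, another time scale and genes with disagreeing tables left out. Figures were drawn with matplotlib 3.10.9 in Python 3.11.15.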

Additional observations from a re-analysis of the deposited data

Results flagged for a closer look

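For 4 of 65 tested protocadherins the log2 ratio of 1 day lay far from that of the other 9 days (Dixon's test over 10 days), where chance gives about 1 in 20. The ratio of Pcdh7 was -0.63 on day 6, with 0.96 the nearest other day. That of Pcdh19 was -1.64 on day 6, with -0.55 the nearest. That of Pcdhgb4 was -0.42 on day 6, with 0.35 the nearest. That of Pcdhb22 was 0.20 on day 1, with -0.25 the nearest. Of the 4, 3 fell on day 6, the day left out of the tests.

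For 14 members the slope on day differed between the lines by the slope of the ratio (limma, adjusted p under 0.05). In log2 units per day, knockdown minus control, it was 0.23 for Pcdh15 and 0.083 for Pcdhgc3. In the alpha cluster it was -0.16 for Pcdha3, -0.073 for Pcdha4, -0.099 for Pcdha5 and -0.17 for Pcdhac2. In the gamma cluster it was -0.11 for Pcdhga4, -0.095 for Pcdhga5, -0.11 for Pcdhga6, -0.15 for Pcdhga8, -0.072 for Pcdhga10, -0.17 for Pcdhgb6 and -0.26 for Pcdhgc4. For Pcdh11x it was -0.14.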

How the results depend on the processing

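At a typical log2 count of at least 8, where fewer members were tested, 10 differed between the lines (7 higher, 3 lower), 5 changed with day in the control line (4 up, 1 down), 3 in the knockdown line (2 up, 1 down) and 3 in the ratio (2 up and 1 down, against 2 up and 12 down at the minimum of 4). Without the pairing by day (no replicate block) 4 members were lower and 26 higher; same-day libraries of the lines deviated together at correlations of 0.00773 to 0.446, over 0.1 on 8 of 9 days, and on 5 of 9 days a library correlated best with its own day. The exact sign-flip permutation test called 24 higher and 5 lower. In the control line 1 member fell, not 0, with day 6 kept, without genes whose tables disagree, on log2(day + 1), and with days 3 to 4 taken through the knockdown tables, an alternative chosen after seeing the data. In the knockdown line 11 members passed with no level minimum (4 up, 7 down, against 10 up and 9 down), and 0 rose and 0 fell on log2(day + 1). In the ratio 1 member rose with no minimum, and 9 passed with day 6 kept (1 up). Leaving out 1 day at a time gave 31 to 34 members differing between the lines (25 to 29 higher; 4 to 8 lower, 4 without day 10 or day 14), 24 to 36 changing in the control line (24 to 35 up, 0 to 1 down), 3 to 20 in the knockdown line (0 to 11 up, 2 to 9 down) and 7 to 17 in the ratio (0 to 5 up, 6 to 13 down). At 1.5-fold in place of 2-fold there were 364 steps in place of 122 (control 92 up and 58 down, knockdown 111 up and 103 down). Of the values of named members, 434 kept their call between the lines, 19 lost it and 7 gained it; for the control trend these were 402, 18 and 12, for the knockdown trend 372, 31 and 1, and for the difference in trend 353, 16 and 7. The causes were not tested. Another pseudocount was not run, since the tables hold no levels to add one to.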
